A study of Mus musculus with 6 samples.

Results

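The sarcomeric myosin heavy chains are the motor proteins of the thick filament, and the isoform a fibre makes sets how fast it contracts. Here they were followed as 8 genes, Myh1, Myh2, Myh3, Myh4, Myh6, Myh7, Myh7b and Myh8, chosen by symbol from the 34714 gene symbols of a table of deposited read counts. The table holds 6 RNA-seq libraries of gastrocnemius (Gas) muscle, a calf muscle made mostly of fast fibres, from untreated male mice 8 weeks old. Whether the whole muscle or a part of it was used is not given in the sources used here. The 3 M92KO libraries came from mice with a global deletion of miR-92b (C57BL/6JGpt- Mir-92bem22Cd549/Gpt), so that every tissue and not muscle alone lacked this microRNA. The 3 WT libraries came from age-matched C57BL/6 mice, and whether these were littermates is not given in the sources used here. The comparison asks which transcripts of Gas muscle differ when miR-92b is absent. The study's general methods describe endurance tests and an overnight fast before tissues were taken. Whether either applied to the mice of these libraries is not given in the sources used here. The labels number the libraries within a genotype without naming a mouse, so p-values measure the spread between these libraries. The genotype labels were not checked on miR-92b itself, which was not analysed here.

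In adult limb muscle, each fibre mostly uses 1 of 4 myosin heavy chains. Myh4 encodes the fastest isoform (IIb), Myh1 the IIx isoform, Myh2 the fast oxidative IIa isoform and Myh7 the slow isoform of type I fibres, which is also the beta chain of the heart. Myh3 and Myh8 encode the embryonic and perinatal isoforms, which are used in developing and regenerating fibres and fade as muscle matures. Myh6 encodes the alpha chain of the heart, and Myh7b an ancient slow-type chain that is best known as the host of a microRNA. Fibres can shift from one isoform to the next with training, loading and nerve activity.

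The libraries held between 33160508 and 48209846 counts, with the 3 smallest in M92KO. The 8 genes together took between 4.31% and 4.48% of a library's counts, and this summed share varied by a coefficient of variation (CV) of 1.66% over the 6 libraries. Levels are given as CPM, counts scaled to the normalized library size. The detection floor was set at 3 counts, or 0.0629 to 0.0916 CPM depending on the library, for counting error alone, and all 8 genes lay above it in every library. The tissue label was checked on 6 skeletal muscle genes (Acta1, Ckm, Ttn, Des, Mb and Myod1), which summed to between 55742 and 59909 CPM in every library. The first M92KO library stood apart from the other M92KO libraries in Myh1, Myh2, Myh3 and several partner genes, and the main results it moved are given with and without it. It was picked out after its values were seen.

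The genes lie at 3 places in the mouse genome (GRCm38, GENCODE M21). The 5 genes Myh3, Myh2, Myh1, Myh4 and Myh8 lie in this order head to tail on the plus strand of chromosome 11, from chr11:67078300-67102291 for Myh3 to chr11:67277124-67308634 for Myh8, within 230.3 kb. Myh2 is at chr11:67171027-67197517, Myh1 at chr11:67200052-67224575 and Myh4 at chr11:67238029-67260446. A further heavy chain gene, Myh13, starts 13023 bases after Myh8. The heart-type pair is on the minus strand of chromosome 14, with Myh6 at chr14:54941921-54966927 and Myh7 at chr14:54970684-54994626, and Myh7b is alone on the plus strand of chromosome 2 at chr2:155611212-155634307. Their transcripts are nearly equal in length, between 6016 and 6230 bases in 39 to 42 exons.

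The adult and perinatal genes of the chromosome 11 cluster are so alike that stretches of their coding sequence cannot be told apart. Over the coding sequence, identity was 90.9% between Myh1 and Myh2, 90.1% between Myh1 and Myh4, 88.2% between Myh2 and Myh4 and 91.7% between Myh6 and Myh7, while Myh7b shared at most 72% with any other member. In the alignment of Myh1, Myh2, Myh4 and Myh8, 446 of 5611 windows of 30 bases (7.95%) were identical in all 4 genes, and the longest identical run had 109 bases. The window with the most variable positions, 21 of 30, lies in exon 15 of Myh4 and exon 16 of the other 3 genes. It is given with capitals at the positions where the 4 genes do not all share a base, because reads from such a place can be given to 1 gene.
Myh1 (chr11:67209128-67209157, plus strand): TTACctCttCtcTGGGGCAGCAGCAgcTgC
Myh2 (chr11:67181310-67181339, plus strand): TTATctCttCtcTGGGGCACAAACTgcTgA
Myh4 (chr11:67248721-67248750, plus strand): TTTCctAttTtcTGGGGGACAAGCTgcGgA
Myh8 (chr11:67289802-67289831, plus strand): CAGCctCttTtcCACATACGCTAGTgcTgA
By contrast, a run in exon 23 of Myh4 and exon 24 of Myh1, Myh2 and Myh8 is the same in all 4 genes, and a read that lies wholly within it belongs to none of them alone.
Myh1, Myh2, Myh4 and Myh8 (Myh4 at chr11:67252224-67252253, plus strand): atcgccaagctgaccaaggagaagaaggcc

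How much of each gene such stretches take was counted over every window of the reference transcripts. At 50 bases, 32.1% of the windows of Myh1, 28.9% of Myh2, 18.9% of Myh4 and 21.4% of Myh8 were also present in a transcript of some other gene, against 4.81% of Myh3 and 0% of Myh7b. Myh7 and Myh6, with 28.2% and 22.6%, shared mostly with each other. At 100 bases the shares were 14.7% for Myh1, 11.2% for Myh2, 3.85% for Myh4 and 13.9% for Myh7. The read length, the counting program and its handling of reads that match several genes are not given in the sources used here, so the levels of these genes carry an uncertainty that the replicate error does not show.

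**Figure D1:**
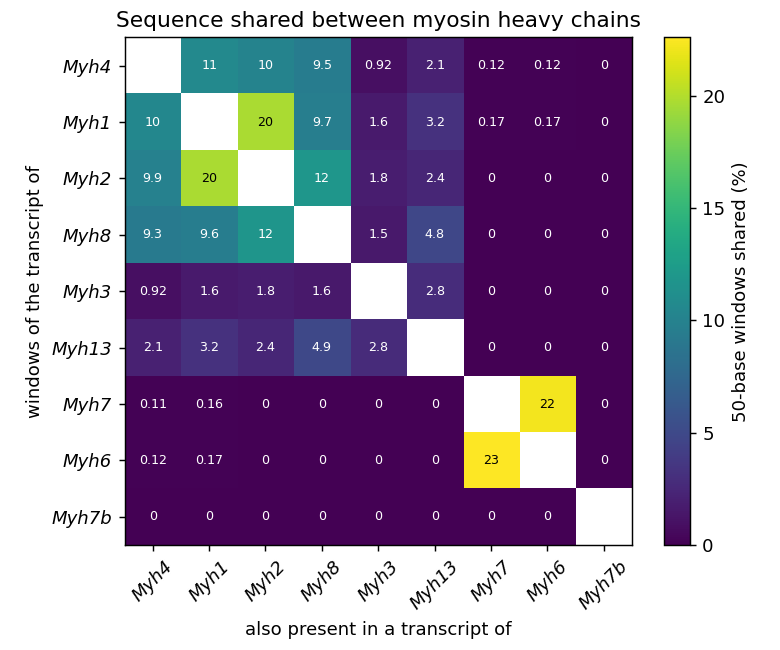
Heat map of the percentage of 50-base windows of each gene's reference transcript (rows) that is also present in a transcript of each other gene (columns), with the percentage written in each cell and the diagonal left blank. Myh1 and Myh2 shared 19.7% of their windows, Myh6 shared 22.6% of its windows with Myh7, and Myh7b shared 0% with every gene shown.

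Per kilobase of transcript, the adult fast isoforms dominated Gas muscle in both genotypes. Myh4 was the most abundant member, at 4237 ± 502 CPM per kb in WT and 4403 ± 744 CPM per kb in M92KO muscle (mean ± SD, n = 3 libraries each, as for all such values). Myh1 followed at 2633 ± 245 and 2314 ± 633 CPM per kb, and Myh2 at 327 ± 54.9 and 531 ± 178 CPM per kb. The perinatal Myh8 stood at 44.4 ± 2.84 and 44.3 ± 1.27 CPM per kb, and the embryonic Myh3 at 3.85 ± 0.517 and 4.12 ± 1.47 CPM per kb. The order Myh4, Myh1, Myh2, Myh8 and Myh3 held in 6 of 6 libraries, with no overlap between neighbours within a genotype, and Myh3 also lay above Myh7 in all 6.

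The last 3 members could not be ranked. Myh7, Myh6 and Myh7b had means of 0.987, 0.855 and 0.819 CPM per kb in WT and 0.855, 0.798 and 0.654 CPM per kb in M92KO muscle, with ranges that overlapped in both genotypes. Myh7 was above Myh6 in 2 of 6 libraries. The mean of Myh4 over the 6 libraries was 4690 times that of Myh7, so transcripts of the slow isoform were a trace in these samples of a muscle whose slow fibres are few.

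**Figure D2:**
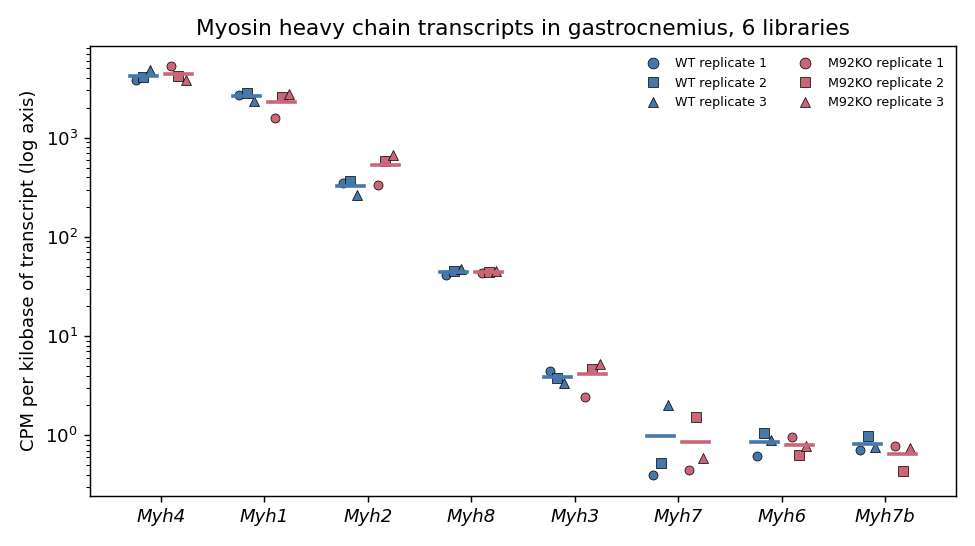
Level of each myosin heavy chain gene in CPM per kilobase of transcript (log axis), with a point for each library (marker shape gives the replicate number, colour the genotype) and a bar for each genotype's mean of 3. The genes are ordered from Myh4, at 3814 to 5239 CPM per kb, down to Myh7, Myh6 and Myh7b, whose points overlap between 0.396 and 2.04 CPM per kb.

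None of the 8 genes differed between the genotypes after adjustment. With edgeR's quasi-likelihood test on all 15788 genes that passed the filter on low counts, all 8 members were tested and 0 had an adjusted p-value under 0.05, as did 0% of all genes. Their adjusted p-values ran from 0.314 to 0.986. At an unadjusted p-value under 0.05, edgeR gave 1 of 8 members (12.5%, Myh2), against 1955 genes or 12.4% of all genes tested (5.47% higher and 6.92% lower in M92KO), so the members' share was close to the background. DESeq2's Wald test called 312 genes at an adjusted p-value under 0.05 and gave no adjusted p-value for 1535, and it called 0 members. The 3 values of a genotype lay wholly apart from those of the other in 0 of 8 members, against 18.4% of all genes tested. With 3 against 3 libraries, an exact permutation test of a single gene has 0.1 as its smallest two-sided p-value.

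Myh4, the IIb isoform, had 22990, 24629 and 28844 CPM in the WT libraries and 31515, 25007 and 22945 CPM in the M92KO libraries. The M92KO libraries held both the highest and the lowest value, and the groups overlapped. Its log2 fold change (M92KO minus WT) was 0.056 (95% interval -0.29 to 0.40), with an adjusted p-value of 0.922 by edgeR. It was -0.088 without the first M92KO library and -0.014 without the first WT library, so the direction was not fixed by the data.

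Myh1, the IIx isoform, had 16491, 17205 and 14346 CPM in WT and 9664, 15781 and 16778 CPM in M92KO muscle. The first M92KO library lay below all the others, and the other M92KO libraries lay within the WT range. The log2 fold change was -0.19 (-0.64 to 0.26, adjusted p = 0.759 by edgeR), and without the first M92KO library it was 0.024. Across the 6 libraries Myh1 was low where Myh4 was high, with a Pearson r of -0.89 between their log2 CPM, a description over libraries whose depth and scaling are shared by both genes.

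Myh2, the IIa isoform, showed the largest log2 fold change among the 8 genes. It had 2124, 2239 and 1612 CPM in WT and 2018, 3575 and 4099 CPM in M92KO muscle. M92KO replicates 2 and 3 stood above every WT library, while the first lay within the WT range. The means were 1991 ± 334 and 3231 ± 1082 CPM, and the log2 fold change was 0.70 (SE 0.24, 95% interval 0.15 to 1.25), with an adjusted p-value of 0.314 by edgeR, 0.313 by DESeq2 and an exact permutation p-value of 0.3. Without the first M92KO library, the log2 fold change was 0.95 and edgeR's adjusted p-value 0.0170, while all genes called rose from 0 to 401. Over all alternatives the adjusted p-value ran from 0.0170 to 1.00, and the log2 fold change with a library left out ran from 0.49, without M92KO replicate 3, to 0.95. Of its exonic bases, 237 overlap the opposite-strand gene 9430073C21Rik. In these bulk samples, more fibres of a type and more RNA per fibre cannot be told apart.

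**Figure D3:**
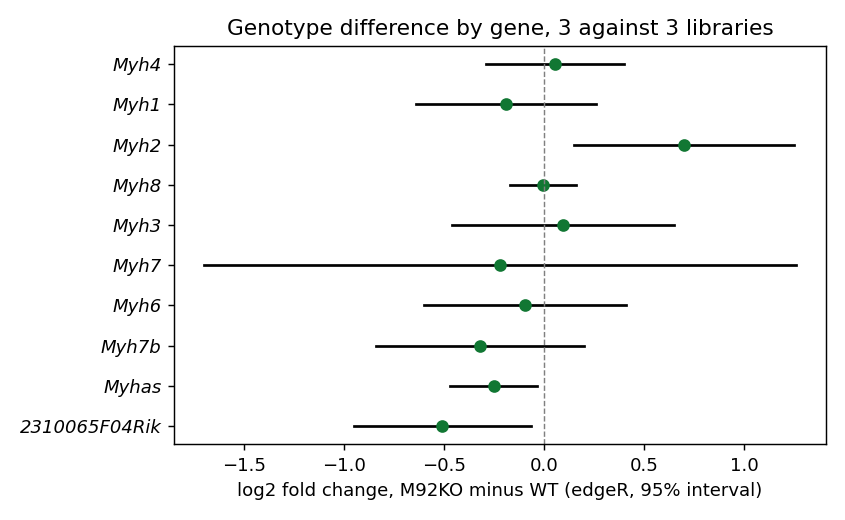
Log2 fold change between M92KO and WT libraries (points, edgeR) with its 95% interval (lines) for the 8 myosin heavy chain genes and 2 noncoding genes of the chromosome 11 cluster, with a dashed line at 0. Among the heavy chains, the interval of Myh2 (0.15 to 1.25) is the only one that does not cross 0, before adjustment over all genes, and that of Myh7 (-1.70 to 1.26) is the widest.

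The developmental isoforms behaved unlike each other. Myh8, the perinatal isoform, was among the steadier transcripts of the muscle, with 254, 276 and 289 CPM in WT and 265, 271 and 280 CPM in M92KO muscle. The M92KO values lay inside the WT range. Its CV over the 6 libraries was 4.44%, where the median gene had 11.7% and 93.0% of the genes tested had a larger one. The genotypes differed by a log2 fold change of -0.0049 (-0.17 to 0.16, adjusted p = 0.986 by edgeR; 0.036 without WT replicate 3), and its level per kb stayed between 0.601% and 0.633% of the summed Myh1, Myh2 and Myh4 in every library. Of its windows, 21.4% at 50 bases and 6.61% at 100 bases are also found in another gene. In those stretches, reads of the far more abundant adult isoforms counted on Myh8 and its own transcripts cannot be told apart here. How much of the Myh8 level comes from such reads was not tested.

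Myh3, the embryonic isoform, had 26.6, 22.7 and 20.4 CPM in WT and 14.8, 28.1 and 31.6 CPM in M92KO muscle. The first M92KO library was the lowest of the 6 and the other M92KO libraries the highest. For Myh3 the log2 fold change was 0.097 (SE 0.24, adjusted p = 0.912 by edgeR) and 0.36 without the first M92KO library (adjusted p = 0.151), and -0.12 without M92KO replicate 3. Over the 6 libraries its log2 CPM had a Pearson r of 0.87 with Myh1 and -0.92 with Myh4. Of the windows of Myh3 at 50 bases, 4.81% are also found in another gene, with 1.6% found in Myh1 and 0.919% in Myh4. How much of the Myh3 level, or of these correlations, comes from reads of more abundant heavy chains was not tested.

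The slow and heart-type members were low and, for Myh7, uneven. Myh7 had 2.47, 3.26 and 12.7 CPM in WT and 2.76, 9.50 and 3.72 CPM in M92KO muscle, which are 114, 126, 607, 96, 311 and 135 counts. The third WT and the second M92KO library stood above the other 4. The CV over 6 libraries was 75.0%, and 0.608% of the genes tested had a larger one. The log2 fold change was -0.22 (-1.70 to 1.26, adjusted p = 0.928 by edgeR). It was 0.89 without the third WT library, -0.93 without the second and 0.088 without the first M92KO library, so its direction rested on single libraries.

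Myh6 had 3.81, 6.39 and 5.47 CPM in WT and 5.93, 3.88 and 4.82 CPM in M92KO muscle, and the M92KO values lay within the WT range. Its log2 fold change was -0.095 (SE 0.22, adjusted p = 0.905 by edgeR), and it was 0.072 without WT replicate 2 and 0.043 without M92KO replicate 2. Myh7b had 4.35, 6.06 and 4.74 CPM in WT and 4.78, 2.72 and 4.60 CPM in M92KO muscle, with the second M92KO library the lowest of the 6. Its log2 fold change was -0.32 (SE 0.23, adjusted p = 0.635 by edgeR), and -0.10 without M92KO replicate 2. Myh7 shares exonic bases with opposite-strand genes (484 with Mhrt, 523 with Gm31251 and 142 with Gm29015), as do Myh6 (114 with Gm49130) and Myh7b (37 with Trpc4ap). Whether the counting used strand is not given in the sources used here, so reads of these partners cannot be told apart from theirs at those bases.

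Shares within a library do not depend on its size or normalization. Of the summed counts per kb of the 8 genes, Myh4 took 55.1%, 55.8% and 64.2% in WT and 72.7%, 56.2% and 52.2% in M92KO muscle. Myh1 took 39.1%, 38.5% and 31.6% in WT and 22.1%, 35.1% and 37.8% in M92KO muscle. Myh2 took 5.04%, 5.01% and 3.55% in WT and 4.60%, 7.95% and 9.23% in M92KO muscle. The first M92KO library had the highest Myh4 and lowest Myh1 share of the 6, and the third WT library was next in both. Counting error, from the 95% Wilson interval on either side of a share, was at most 0.080 percentage points for Myh4, 0.077 for Myh1 and 0.045 for Myh2, far less than the spread between libraries. For Myh8, Myh6 and Myh7b this 95% half-width, which is wider than an SE, was at most 0.013, 0.0019 and 0.0018 percentage points. The SDs between libraries were 0.0158, 0.00263 and 0.00182 in WT and 0.0159, 0.00244 and 0.00263 in M92KO muscle.

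The adult fast genes Myh1, Myh2 and Myh4 together took between 99.27% and 99.34% in every library, so the libraries differed in how this sum was divided and hardly in its size. The mean share of Myh2 was 4.53% ± 0.854 in WT and 7.26% ± 2.39 in M92KO muscle, a difference of 2.73 percentage points (two-sided exact permutation p = 0.3), and of 4.06 without the first M92KO library. Without it the Myh4 share differed by -4.11 and the Myh1 share by 0.0424 percentage points. Over the 8 shares every Benjamini-Hochberg adjusted p-value was 0.9. The log2 ratio of Myh2 to Myh4 was -3.70 ± 0.41 in WT and -3.10 ± 0.78 in M92KO muscle (exact permutation p = 0.3), and that of Myh1 to Myh4 -0.68 ± 0.29 and -0.96 ± 0.67 (exact permutation p = 0.7). In M92KO libraries the Myh1 to Myh4 ratio was -1.72, -0.68 and -0.47. Without the first M92KO library, an alternative chosen after seeing the data, the M92KO mean was -0.57 and the difference turned to 0.11 (exact permutation p = 0.8), and that of Myh2 to Myh4 went from 0.60 to 1.04 (exact permutation p = 0.1). The slow-to-fast ratio, the log2 of Myh7 over the sum of Myh1, Myh2 and Myh4 per kb, was -13.23 ± 1.2 in WT and -13.26 ± 0.91 in M92KO muscle (exact permutation p = 1.00). Its values were -14.08, -13.77 and -11.83 in WT and -13.98, -12.23 and -13.57 in M92KO libraries, the same 2 libraries being high as for Myh7 alone. Its difference went from -0.034 to 0.325 without the first M92KO library and to 0.666 without the third WT library.

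**Figure D4:**
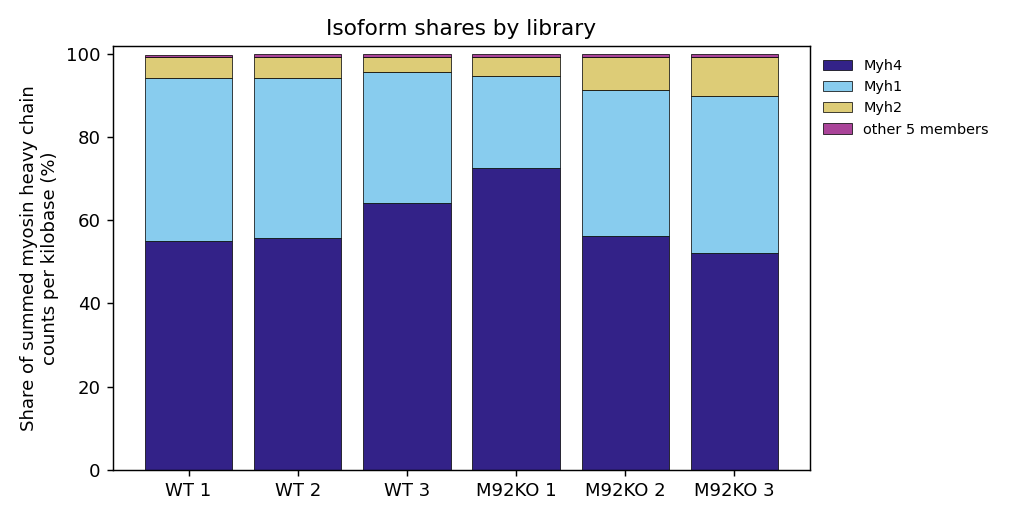
Stacked bars of each myosin heavy chain gene's share of the summed counts per kilobase of the 8 genes, for each of the 6 libraries (percent, axis from 0). Myh4, Myh1 and Myh2 fill at least 99.27% of every bar, and the Myh2 segment is 7.95% and 9.23% in M92KO replicates 2 and 3 against 3.55% to 5.04% in the other 4.

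The cluster on chromosome 11 also holds noncoding genes on the opposite strand. Myhas, annotated as antisense, lies at chr11:67211256-67237573 on the minus strand. It starts 455 bases before the annotated Myh4, is transcribed away from it into Myh1, and shares 515 exonic bases with Myh1. It had 59.5, 64.2 and 71.1 CPM in WT and 60.3, 53.6 and 49.4 CPM in M92KO muscle. M92KO replicates 2 and 3 lay below all WT libraries, and the first did not. Its log2 fold change was -0.25 (SE 0.096, adjusted p = 0.352 by edgeR), and -0.33 without the first M92KO library (adjusted p = 0.0870).

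2310065F04Rik, a long intergenic RNA at chr11:67112461-67120080 on the minus strand between Myh3 and Myh2, had 129, 117 and 158 CPM in WT and 127, 74.9 and 82.9 CPM in M92KO muscle. The same M92KO libraries were low. Its log2 fold change was -0.51 (SE 0.19, adjusted p = 0.355 by edgeR), and -0.77 with an adjusted p-value of 0.0260 without the first M92KO library (0.0260 to 0.870 over all alternatives). Without that library edgeR called 401 genes, against 0 with it. Over the 6 libraries, Myh2 had a Pearson r of -0.97 with 2310065F04Rik and -0.94 with Myhas, given as a description of libraries in which the same 2 M92KO samples set the extremes. Without knowledge of strand in the counting, reads of Myhas and Myh1 cannot be told apart where they overlap.

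The starts of the genes were read from the RefSeq promoter windows of GRCm38.p6 (250 bases before to 50 after the start site, which is counted as 0). For some members this start is not the GENCODE start given above, and offsets are counted from the RefSeq start. The window of Myh4, chr11:67237562-67237861, ends before the GENCODE start of that gene at 67238029. Every promoter was searched on both strands for the TATA sequence TATAAA, the E-box CANNTG, the MEF3 core TCAGGTT and, by name, the MEF2 and SRF (CArG) sites of muscle genes. A MEF2 site, bound by the myocyte enhancer factors, was found in the windows of Myh1, Myh4 and Myh8 and in 3.19% of all 32851 promoters. The 3 sites are shown with the MEF2 letters in capitals, since they lie within a run of 15 bases, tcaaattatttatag, that is the same in all 3 genes.
Myh1 (chr11:67199881-67199910, plus strand, first capital at -211): acaactcaaaTTATTTATAGgagattgatt
Myh4 (chr11:67237620-67237649, plus strand, first capital at -182): ccctgtcaaaTTATTTATAGatgacaagaa
Myh8 (chr11:67277015-67277044, plus strand, first capital at -99): ccttgtcaaaTTATTTATAGgagattggtt
The same letters hold TATAAA on the other strand. A TATAAA near the usual distance from the start was found at -29 in Myh3, -32 in Myh1 and -31 in Myh4, and TATAAA at any place in 13.6% of all promoters.
Myh3 (chr11:67078259-67078288, plus strand, TATAAA in capitals): ttagtggtggccTATAAAagcccagggggc
Myh1 (chr11:67200058-67200087, plus strand, TATAAA in capitals): catatttgatccTATAAAagtaccccttgg
Myh4 (chr11:67237769-67237798, plus strand, TATAAA in capitals): cagaacagcctcTATAAAagtgaagctggg
In the window of Myh2, TATAAA was found at 10, after the start, and none of the other 4 motifs was found. An E-box was found in 72.3% of all promoters and in those of Myh3, Myh4, Myh6, Myh7, Myh7b and Myh8, a CArG site in 1.63% of all and in that of Myh4, and the MEF3 core in 4.07% of all and in no member's window. A match is a string of letters and not a measured site.

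The deleted microRNA was set beside the members' 3′ ends, since microRNAs mostly act by pairing of their seed (bases 2 to 8, in capitals) with the 3′-UTR of a transcript. Both mature forms are shown from RefSeq, with the 3 heart and muscle microRNAs that lie within introns of members.
miR-92b-3p: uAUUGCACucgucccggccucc
miR-92b-5p: aGGGACGGgacguggugcaguguu
miR-208a-3p (intron 29 of Myh6): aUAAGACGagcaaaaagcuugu
miR-208b-3p (intron 31 of Myh7): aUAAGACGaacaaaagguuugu
miR-499-5p (intron 19 of Myh7b): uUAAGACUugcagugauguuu
miR-208a-3p and miR-208b-3p have the same seed, UAAGACG, and that of miR-499-5p, UAAGACU, differs from it in its last base. The levels of these 3 microRNAs were not analysed here. Over 18 annotated 3′-UTRs of the 8 members, a match of at least 6 bases to the seed of miR-92b-3p was found in Myh3, Myh4 and Myh8 and to that of miR-92b-5p in 0 members. The matches are printed in capitals.
Myh3 (chr11:67102253-67102277, plus strand, in 3 transcripts): ttttccacaTGCAATAaagtttgcc
Myh4 (chr11:67260429-67260446, plus strand, in 1 transcript): agataatttTGCAATcta
Myh8 (chr11:67281312-67281336, plus strand, in 1 shortened transcript): tctcctagaTGCAATAcagttgtac
The matches of Myh3 and Myh8 are of 7 bases, 6 that pair with the seed and a final A, and that of Myh4 is of 6 bases. In M92KO muscle these 3 genes had log2 fold changes of 0.097, 0.056 and -0.0049, with adjusted p-values of 0.912, 0.922 and 0.986 by edgeR. Myh2 has no such match in either of its 3′-UTRs of 126 and 129 bases.

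Genes that work with the heavy chains were read from lists written for this tissue, by their counts beside those of all genes. In the fast fibre list, which holds troponins, light chains, calcium pumps and other partners of the fast isoforms, 0 of 12 genes had an unadjusted p-value under 0.05 by edgeR, the median log2 fold change was 0.014, and the sum ran from 85912 to 99091 CPM in WT and from 83581 to 97644 CPM in M92KO muscle. The smallest p-values were those of Casq1, a calcium store protein, Atp2a1, the fast calcium pump, and Actn3, the fast alpha-actinin, with log2 fold changes of -0.16, -0.13 and -0.14 (adjusted p = 0.609, 0.709 and 0.754 by edgeR). Over all genes tested 12.4% had an unadjusted p-value under 0.05 by edgeR, and the median log2 fold change was -8.1e-05.

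In the slow fibre list, 3 of 12 genes were higher and 1 was lower at an unadjusted p-value under 0.05 by edgeR, 0 passed after adjustment, and the median log2 fold change was 0.039. Of all genes tested, 5.47% were higher and 6.92% lower by the same rule, and 18.4% had groups that did not overlap. The genes furthest from 0 were not contractile proteins of the slow filament. Csrp3, a muscle LIM protein of the Z-disc and a sensor of load, had 49.5, 81.3 and 36.8 CPM in WT and 126, 764 and 454 CPM in M92KO muscle. All M92KO libraries stood above all WT libraries, the first by least, and the log2 fold change was 3.0 (SE 0.58), with an adjusted p-value of 0.179 by edgeR and 0.00229 by DESeq2 (0.00229 to 0.607 over all alternatives; 3.45 without the first M92KO library). Ankrd2, an ankyrin repeat protein that responds to stretch, had 116, 161 and 88.6 CPM in WT and 208, 994 and 695 CPM in M92KO muscle. Its groups did not overlap either, and the log2 fold change was 2.37 (SE 0.49), with an adjusted p-value of 0.179 by edgeR and 0.00621 by DESeq2 (0.00400 to 0.678 over all alternatives; 2.79 without the first M92KO library).

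Tpm3, the slow tropomyosin, was lower at -0.31 (adjusted p = 0.255 by edgeR). Myoz2, a calsarcin of the Z-disc chosen here after its values were seen, had 57.9, 58.8 and 47.4 CPM in WT and 55.0, 105 and 122 CPM in M92KO muscle. It had the order of Myh2 in the 6 libraries (Spearman rho 1.00), and a log2 fold change of 0.78 (adjusted p = 0.281 by edgeR, 0.00602 to 0.870 over all alternatives, the lowest without the first M92KO library). The other 8 genes of the list, also named after their values were seen, were of 2 levels. Those at a trace in every library were Tnnt1 (3.42 to 6.18 CPM), Tnni1 (1.04 to 2.62), Tnnc1 (1.49 to 3.29), Myl2 (2.51 to 6.69) and Myl6b (2.99 to 4.54), which are troponins and light chains of slow fibres. Their log2 fold changes were -0.33, -0.30, 0.094, 0.10 and -0.016, with adjusted p-values of 0.511, 0.775, 0.937, 0.939 and 0.983 by edgeR. Myl3, the slow essential light chain, was more abundant and uneven, with 169, 186 and 79.1 CPM in WT and 67.5, 68.7 and 148 CPM in M92KO muscle and a log2 fold change of -0.61 (adjusted p = 0.561 by edgeR). Atp2a2, the slow calcium pump, had 46.5 to 70.6 CPM with the M92KO libraries below all WT libraries (-0.23, adjusted p = 0.459 by edgeR). Casq2, the slow calcium store protein, had 58.7 to 112 CPM with overlapping groups (0.14, adjusted p = 0.868 by edgeR).

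Of 11 genes for the assembly of the thick filament, 3 were higher and 0 lower at an unadjusted p-value under 0.05 by edgeR, all 3 of them myomesins, which crosslink myosin at the M-band, and the median log2 fold change was 0.11. These counts too stand beside 5.47% higher and 6.92% lower among all genes tested. Myom3, known from slow and IIa fibres, had 24.5, 21.9 and 17.3 CPM in WT and 19.6, 69.3 and 57 CPM in M92KO muscle. As with Myh2, the first M92KO library lay within the WT range and the other M92KO libraries above it. For Myom3 the log2 fold change was 1.20 (adjusted p = 0.281 by edgeR). Myom2 and Myom1 had log2 fold changes of 0.28 and 0.20 (adjusted p = 0.312 and 0.388 by edgeR), and their groups did not overlap, as in 18.4% of all genes tested. Without the first M92KO library the log2 fold changes of Myom3, Myom2 and Myom1 were 1.57, 0.37 and 0.27, with edgeR's adjusted p-values of 0.00442, 0.0179 and 0.0466. Over all alternatives these ran from 0.00442 to 0.920, from 0.0179 to 0.721 and from 0.0466 to 1.00. Leaving out the first M92KO library, picked after seeing the data, raised the genes called by edgeR from 0 to 401.

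**Figure D5:**
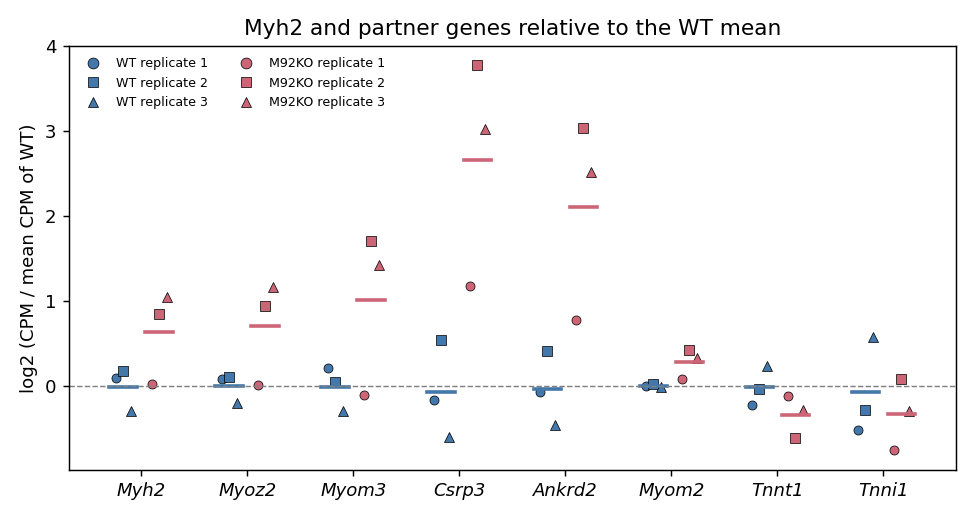
Level of Myh2 and 7 partner genes in each library, as log2 of CPM over the mean CPM of the WT libraries (dashed line at 0), with marker shape for the replicate number, colour for the genotype and a bar for each genotype's mean of the 3 log2 values. For Myh2, Myoz2 and Myom3 the first M92KO library lies at 0.02, 0.01 and -0.12, among the WT libraries, and M92KO replicates 2 and 3 lie between 0.84 and 1.71, while the slow troponins Tnnt1 and Tnni1 do not follow.

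Of 18 regulators of isoform choice, edgeR gave 1 that was higher and 2 that were lower with an unadjusted p-value under 0.05. None passed after adjustment (0 of 18), and the median log2 fold change was -0.056. Among all genes tested, 5.47% were higher and 6.92% lower at an unadjusted p-value under 0.05 by edgeR. Maf, whose family of transcription factors drives the IIb gene, had a log2 fold change of -0.49 (adjusted p = 0.352), Purb, a repressor of muscle myosin genes, -0.20 (adjusted p = 0.377), and Tbx15, a factor of fast glycolytic fibres, 0.15 (adjusted p = 0.395), all by edgeR. Without the third WT library Maf stood at -0.25. Purb stood at -0.13 without the first M92KO library.

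Markers of other fibre states and cell types that carry these heavy chains were summed as lists. Their counts at an unadjusted p-value under 0.05 by edgeR stand beside 5.47% higher and 6.92% lower among all genes tested. Of 10 regenerating fibre markers 7 were tested, with 1 higher (Cdh15, a cadherin of muscle precursors, 0.32, adjusted p = 0.220) and 1 lower (Actc1, the actin of heart and immature fibres, -0.85, adjusted p = 0.214) at an unadjusted p-value under 0.05 by edgeR. The sum of this list ran from 369 to 590 CPM in WT and from 273 to 382 CPM in M92KO muscle, most of it from Actc1 (284 to 484 CPM in WT and 180 to 290 CPM in M92KO muscle). Of 7 heart muscle markers 4 were tested, with a sum between 7.60 and 10.5 CPM over the 6 libraries, most of it from Gja5, a connexin that vessels also carry, which was the 1 gene lower at an unadjusted p-value under 0.05 (-0.28, adjusted p = 0.392 by edgeR). The defining heart gene Nppb was at 0 counts in every library, which allows up to 3 counts, and Myl7 at 0 in 5 of 6. Spindle fibres carry Myh3, Myh6, Myh7 and Myh7b in adult muscle, and their 3 markers summed to between 11.9 and 19.9 CPM in WT and between 11.5 and 14.2 CPM in M92KO muscle. Egr3, a factor these fibres need, had 1.45, 3.31 and 9.26 CPM in WT and 1.87, 4.40 and 2.26 CPM in M92KO muscle, highest in the same 2 libraries as Myh7. Etv1 had 6.23, 5.31 and 5.78 CPM in WT and 4.35, 4.28 and 4.54 CPM in M92KO muscle, and Etv4 4.18, 5.15 and 4.84 and 5.33, 5.56 and 5.12 CPM. Neither was highest in the 2 libraries where Myh7 was. The log2 fold changes of Egr3, Etv1 and Etv4 were -0.73, -0.40 and 0.18 (adjusted p = 0.686, 0.269 and 0.646 by edgeR). The part of spindle fibres, or of slow fibres, in the spread of Myh7 was not tested.

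Heavy chains outside the sarcomere of limb muscle were read as a further list. Of 6 such genes 5 were tested, 1 was lower at an unadjusted p-value under 0.05 by edgeR, and the median log2 fold change was 0.0016. Of all genes tested, 6.92% were lower by the same rule, and 18.4% had groups that did not overlap. Myh9, the nonmuscle chain IIA, had 164, 172 and 153 CPM in WT and 115, 133 and 139 CPM in M92KO muscle. Its groups did not overlap, and the log2 fold change was -0.34 (SE 0.088), with an adjusted p-value of 0.214 by edgeR and 0.0418 by DESeq2 (0.0418 to 0.595 over all alternatives). The nonmuscle chains Myh10 and Myh14 had log2 fold changes of 0.47 and 0.12, and the smooth muscle chain Myh11 0.0016 (adjusted p = 0.569, 0.598 and 0.996 by edgeR). Myh13, the chain of eye muscles at the end of the chromosome 11 cluster, had between 15.6 and 31.1 CPM and a log2 fold change of -0.16 (adjusted p = 0.831 by edgeR). The 5 smooth muscle markers summed to between 354 and 390 CPM over the 6 libraries, with 0 genes at an unadjusted p-value under 0.05 by edgeR.

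The genes whose log2 CPM over the 6 libraries was most like that of a member were mostly outside the contractile apparatus. With so few libraries a high correlation is common among 15788 genes, and the values are given as a description. For Myh4 they were Gm46085 (Pearson r 0.997), Pqbp1 (0.993), 2610307P16Rik (0.991), Ebp (0.990) and Gm13562 (0.989). For Myh7 they were Rnf111 (0.985), Pbx2 (0.982), 4930579G24Rik (0.980), Ccdc69 (0.965) and Hyal1 (0.962). Without the 2 libraries farthest from the median of Myh7 these were 0.627, 0.886, 0.999, 0.026 and 0.641, so that of Ccdc69 rested on those libraries and those of Rnf111 and Hyal1 were weaker, and none of the slow fibre list was among them. For Myh2, listed after its values were seen, they were Nampt (0.996), Myoz2 (0.993), Ubl4a (0.992), Pde8a (0.992) and Ppm1b (0.989).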

How the data were processed

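The authors deposited unnormalized read counts for 34714 gene symbols in 6 Gas libraries (3 WT, 3 M92KO, groups from the labels). RNA was made with an RNeasy kit and libraries with a SMARTer kit. The submitters' processing notes name GRCm38 (mm10), and the aligner, counter and strandedness are not given in the sources used here. The study's steps after counting were normalizeBetweenArrays, log2 after adding 1, and limma. Here counts were filtered (filterByExpr, minimum count 10, total 15; 15788 genes), TMM-normalized and tested with edgeR 4.0.16 (glmQLFit, glmQLFTest, R 4.3.3, no covariate), with Benjamini-Hochberg adjustment over all genes tested. CPM used TMM library sizes, and correlations and exact tests log2(CPM + 0.5). Shares were divided by reference transcript length (GENCODE M21) and tested by exact permutation. Coding sequences were aligned with MAFFT 7.526. Fits were tested on simulated data. Alternatives were DESeq2 1.42.0 (test and size factors), other filters, the study's steps with limma 3.58.1, a replicate block and each library left out. The 8 members and the gene lists (93 entries) were chosen with earlier results of these data known. All members were named, with up to 3 genes of smallest p-value from each list (all of lists up to 6), the 5 genes most like Myh4 and Myh7, and genes next to a member.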

Additional observations from a re-analysis of the deposited data

How the results depend on the processing

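The number of genes called by edgeR, 0, was 312 by DESeq2's Wald test, 6 without a filter on low counts, 42 under the study's steps, 2 with the replicate block and from 0 to 401 with a library left out, the highest without the first M92KO library. With the block, 0 members passed after adjustment and 1 had an unadjusted p-value under 0.05, and the log2 fold changes of Myh7 and Myh3 went from -0.22 to -0.042 and from 0.097 to 0.044. Replicate numbers were not taken to pair libraries, since deviations of libraries with the same number had correlations of only 0.074, 0.045 and 0.015. WT replicates 1 and 2 correlated best with the M92KO library of their own number, and WT replicate 3 did not. With each library left out in turn, 1222 to 2984 genes had an unadjusted p-value under 0.05. Of the members, 0 had an unadjusted p-value under 0.05 under the study's steps and 0 to 2 with a library left out, and 0 to 1 passed after adjustment, the 1 being Myh2 without the first M92KO library. Normalization by DESeq2's size factors and a minimum of 10 counts changed none of these counts by over 1.5 times.

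The direction of Myh2 (0.49 to 0.95) and Myh7b (-0.46 to -0.10) held with each library left out. That of the others did not, with log2 fold changes from -0.33 to 0.024 for Myh1, -0.12 to 0.36 for Myh3, -0.088 to 0.15 for Myh4, -0.28 to 0.072 for Myh6, -0.93 to 0.89 for Myh7 and -0.054 to 0.036 for Myh8. Under the study's steps Myh7 stood at 0.035. The cause was not tested. Differences in share, in percentage points, ran from -7.83 to 0.0424 for Myh1, 1.74 to 4.06 for Myh2, -0.00482 to 0.0141 for Myh3, -4.11 to 6.11 for Myh4, -0.00216 to 0.000467 for Myh6, -0.00622 to 0.00523 for Myh7, -0.00319 to -0.000793 for Myh7b and -0.0151 to 0.00208 for Myh8, the slow-to-fast log2 ratio from -0.547 to 0.666, and, chosen after seeing the data, Myh2 over Myh4 from 0.30 to 1.04 and Myh1 over Myh4 from -0.52 to 0.11. Myh6, Myh7 and Myh7b had 89 to 607 counts in a library. For the shares of Myh6 and Myh7b counting error was close to the SD between libraries, while for Myh7 it was 0.0024 percentage points against an SD of 0.0121 in WT.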
